A study of Mus musculus with 6 samples.

Results

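Matrix metalloproteinases and their tissue inhibitors form a group of 10 genes here, 7 proteases (Mmp3, Mmp8, Mmp9, Mmp12, Mmp13, Mmp14 and Mmp19) and 3 inhibitors (Timp1, Timp2 and Timp3). They were taken by gene symbol from the 15168 genes of the deposited count matrix, and each symbol was found once. The matrix holds RNA sequencing of macrophages sorted from the skin wounds of wild-type female C57BL6/J mice on day 3 after full-thickness wounding, with 3 samples from young mice aged 12 weeks and 3 from aged mice of 24 months. The methods and the labels' growth protocol give ranges of age that reach below these values, and the growth protocol also above 24 months. No transgene, drug or other treatment separated the groups, and all animals were wounded alike. Cells were sorted as live CD45+ CD11b+ CD64+ F4/80+ cells without a step that removed Ly6G+ neutrophils. The comparison asked how the transcripts of young and aged Day 3 wound macrophages differ. Nothing in the sources used here says that the samples came from separate animals, so p-values measure the spread between these samples, which may be technical. Samples are named A, B and C at each age after the set letter in their labels.

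Matrix metalloproteinases are zinc-dependent endopeptidases that are made as inactive zymogens and cut collagens, elastin, fibronectin and other extracellular proteins once their propeptide is removed. Tissue inhibitors of metalloproteinases (TIMPs) are small secreted proteins that bind and block the active site of these enzymes. In a skin wound macrophages, neutrophils, fibroblasts and keratinocytes all make members of both families, and the enzymes are involved in clearing damaged matrix, moving cells through it and remodelling the new tissue. Transcript counts say nothing of zymogen activation or of inhibitor binding.

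Total counts ran from 15270103 to 17927483 per sample. Levels are given as CPM, counts scaled to a common library size, with library sizes adjusted by the trimmed mean of M-values, on which 1 count was worth 0.0553 to 0.0701 CPM. The sort markers were present in all 6 samples: Ptprc (CD45) lay between 190.2 and 308 CPM, and Fcgr1 (CD64) between 422 and 514 CPM. Itgam (CD11b) rose with age (log2 fold change 0.99, SE 0.17, edgeR adjusted p = 0.00735) and Adgre1 (F4/80) fell (log2 fold change -0.69, SE 0.18, edgeR adjusted p = 0.0292). Ly6g, a neutrophil surface marker, lay between 6.14 and 10.9 CPM. The aged B sample stood apart in genes of other skin cells. Its 10 keratinocyte markers present in the table summed to 204.8 CPM, against 0.925 to 3.22 CPM in the other 5 samples, and its 10 fibroblast markers summed to 125.3 CPM, against 13.2 to 42.7 CPM. In bulk samples, fewer cells of a type and less RNA per cell cannot be told apart.

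Of the 10 genes, 9 passed the filter on low counts and were tested between the ages, with p-values adjusted over all 11878 genes tested. Mmp12 and Mmp13 rose in aged macrophages and Timp2 fell at an adjusted p under 0.05. So 2 of 9 were called higher, where 9.73% of all genes tested were, and 1 of 9 was called lower, against 7.97% of all genes tested. In 4 of 9 (Mmp12, Mmp13, Mmp19 and Timp1) every aged sample lay above every young sample, which held for 19.2% of all genes tested. Only Timp2 of the 9 had every aged sample below every young sample, which held for 19.0% of all genes tested. Mmp3, Mmp8, Mmp9 and Mmp14 overlapped between the ages. Without the aged B sample the genes called were again Mmp12, Mmp13 and Timp2. Without young B, young C or aged C only Mmp12 and Mmp13 were called. Without aged A the called genes were Mmp12, Mmp13 and Mmp3, so Timp2 was lost there too. Without young A 6 were called, Mmp9, Mmp19 and Timp1 in addition.

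**Figure D1:**
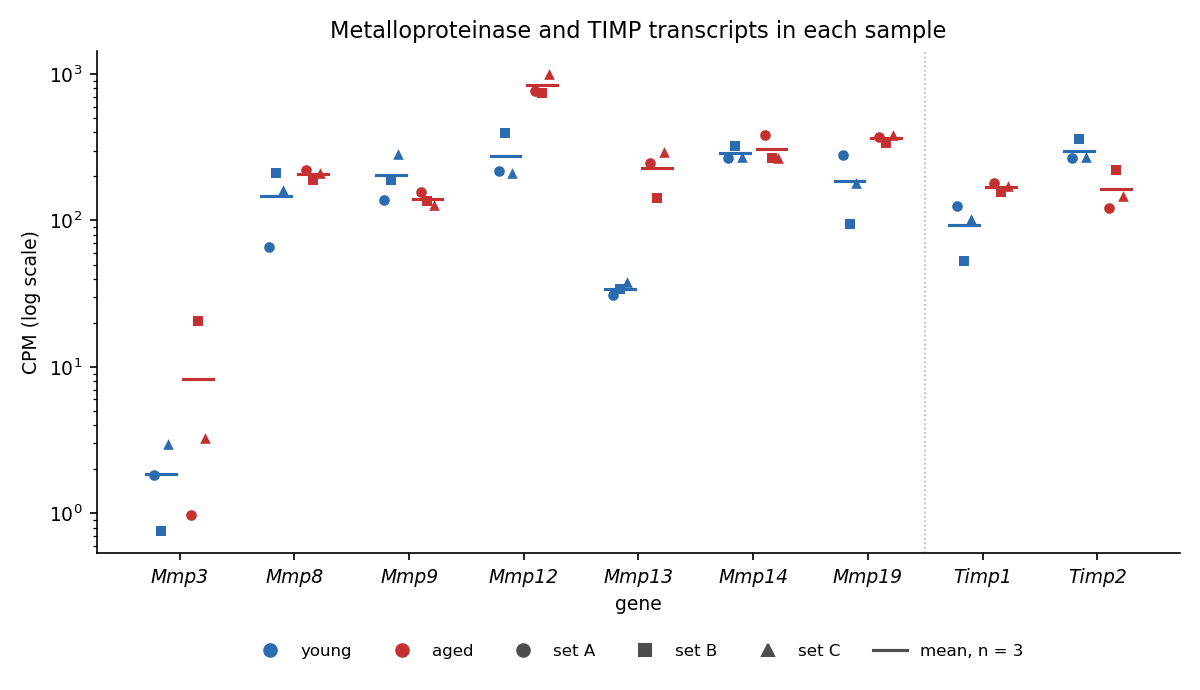
CPM (log scale) of each tested metalloproteinase and TIMP in the 3 young (blue) and 3 aged (red) samples, with the set letter as the symbol and the mean of 3 as a line. The aged samples of Mmp12 and Mmp13 lie above all young samples, those of Timp2 lie below, and aged B alone is high in Mmp3.

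Start-site flanks are shown for the 4 members on chromosome 9, which lie near each other and yet differ in their values, and for Mmp14 and Timp1 for contrast. Of the 2 Mmp12 starts the one with a motif match is shown. Each is the 250 bases before a RefSeq transcription start on GRCm38.p6, read in the direction of the gene. Short motifs of 3 kinds were searched on both strands, and matches are in capitals: AP-1 (TGAGTCA, or TGACTCA on the other strand), the TATA box (TATAAA or TTTATA) and the GC box (GGGCGG or CCGCCC).
Mmp13, chr9:7272264-7272513, plus strand: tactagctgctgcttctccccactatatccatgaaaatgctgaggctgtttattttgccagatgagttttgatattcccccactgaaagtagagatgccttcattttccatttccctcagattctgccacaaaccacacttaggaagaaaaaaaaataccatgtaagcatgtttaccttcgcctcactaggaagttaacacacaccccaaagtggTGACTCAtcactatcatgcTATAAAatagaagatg
Mmp12, second of 2 starts, chr9:7347124-7347373, plus strand: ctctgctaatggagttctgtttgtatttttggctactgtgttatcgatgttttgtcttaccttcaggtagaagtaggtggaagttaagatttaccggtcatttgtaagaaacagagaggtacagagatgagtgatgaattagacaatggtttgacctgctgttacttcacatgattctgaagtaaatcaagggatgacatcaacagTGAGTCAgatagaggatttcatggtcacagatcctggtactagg
Mmp3, chr9:7445572-7445821, plus strand: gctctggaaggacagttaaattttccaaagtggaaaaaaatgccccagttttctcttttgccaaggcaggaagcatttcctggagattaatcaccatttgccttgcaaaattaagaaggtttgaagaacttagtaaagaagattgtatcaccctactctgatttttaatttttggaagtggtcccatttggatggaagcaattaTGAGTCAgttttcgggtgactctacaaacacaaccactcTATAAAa
Mmp8, chr9:7558179-7558428, plus strand: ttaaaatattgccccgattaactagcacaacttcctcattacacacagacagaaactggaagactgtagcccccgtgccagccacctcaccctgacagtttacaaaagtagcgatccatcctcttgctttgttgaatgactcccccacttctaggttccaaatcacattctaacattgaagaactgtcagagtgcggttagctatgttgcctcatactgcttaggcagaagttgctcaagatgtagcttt
Mmp14, chr14:54431348-54431597, plus strand: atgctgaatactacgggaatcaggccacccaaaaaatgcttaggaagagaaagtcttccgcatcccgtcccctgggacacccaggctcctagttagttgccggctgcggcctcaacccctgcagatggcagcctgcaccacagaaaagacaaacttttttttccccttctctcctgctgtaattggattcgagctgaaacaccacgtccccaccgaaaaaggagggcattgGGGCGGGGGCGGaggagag
Timp1, chrX:20869916-20870165, plus strand: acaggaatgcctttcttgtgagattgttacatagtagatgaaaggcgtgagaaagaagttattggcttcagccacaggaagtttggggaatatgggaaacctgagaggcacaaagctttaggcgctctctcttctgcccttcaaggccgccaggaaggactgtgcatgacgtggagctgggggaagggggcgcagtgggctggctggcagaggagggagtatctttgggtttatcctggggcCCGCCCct
RefSeq start windows were matched for 8 of the 10 genes, and not for Mmp9 and Mmp19. The AP-1 letters begin 35 bases before the start in Mmp13, 44 bases before the second start of Mmp12 and 46 bases before the start of Mmp3. They occur in 4.46% of the 32851 windows of the same length. The TATA box letters begin 16 bases before the start in Mmp13 and 7 bases before it in Mmp3, and they occur in 12.4% of all windows. The GC box letters occur in 32.7% of all windows and were found in Mmp14, Timp1, Timp2 and Timp3. The windows of Mmp8 and of the first Mmp12 start held none of these letters. A match is a description of the letters alone. The AP-1 letters were shared by Mmp13 and Mmp12, which were called higher, and by Mmp3, which was not called.

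Among the collagenases, Mmp13 (collagenase 3, chr9:7272514-7283331) cleaves fibrillar collagens and is the main interstitial collagenase of rodents. It was measured at 31.1, 33.8 and 38.0 CPM in young A, B and C and at 246, 141 and 293 CPM in aged A, B and C. The young samples lay close together, and the lowest aged sample, B, was far above all of them. The means were 34.3 ± 3.47 and 227 ± 77.5 CPM (SD, n = 3 each), a 6.61-fold difference. The log2 fold change was 2.73 (SE 0.26, edgeR quasi-likelihood test, Benjamini-Hochberg adjusted p = 0.00127). Compared within each set letter, aged exceeded young by 2.98, 2.06 and 2.94 on the log2 CPM scale in sets A, B and C. The letters were not taken to pair the samples. Mmp13 was the member with the largest called change, and it was called in all 6 fits that left out 1 sample, with adjusted p between 0.000147 and 0.0133.

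Mmp8 (collagenase 2, chr9:7558456-7568485), a collagenase stored in neutrophil granules, gave a different pattern. It was measured at 65.9, 212 and 161 CPM in young A, B and C and at 220.3, 189 and 211 CPM in the aged samples. Young B reached the level of the aged samples and young A was far lower, so the groups overlapped. The log2 fold change was 0.50 (SE 0.33, edgeR adjusted p = 0.313), and it ran from 0.15 without young A to 0.88 without young B.

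Mmp12 (macrophage metalloelastase, chr9:7344381-7369499) degrades elastin and is produced mainly by macrophages. Its level was 217, 393 and 211 CPM in young A, B and C and at 766, 745 and 1007 CPM in aged A, B and C. Young B was the highest young sample and still lay well below the lowest aged sample. The means were 274 ± 104 and 839.6 ± 145 CPM (SD, n = 3 each), a 3.07-fold difference with a log2 fold change of 1.62 (SE 0.26, edgeR adjusted p = 0.00627). The within-set differences were 1.82, 0.92 and 2.26 on the log2 CPM scale in sets A, B and C. Leaving out 1 sample at a time kept the call in all 6 fits, with adjusted p between 0.00623 and 0.0489.

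Mmp9 (gelatinase B, chr2:164940780-164955850) cleaves denatured collagen and basement membrane collagen, and is made by both neutrophils and macrophages. Counts scaled to 139, 190.3 and 282 CPM in young A, B and C and at 158, 136 and 128 CPM in aged A, B and C. Young A lay among the aged samples while young B and C lay above them. The means were 204 ± 72.8 and 140.4 ± 15.5 CPM (SD, n = 3 each), and the log2 fold change of -0.54 (SE 0.24) did not pass the test (edgeR adjusted p = 0.143). It passed when young A was left out (log2 fold change -0.75, edgeR adjusted p = 0.0283) and, with all samples, under limma-voom alone of 6 other settings (log2 fold change -0.76, adjusted p = 0.0223). Neither Mmp8 nor Mmp9 was called, so their estimates of opposite sign were not told apart from no change.

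Because the sort had no step that removed Ly6G+ cells, neutrophil markers are given beside these genes. The 14 of 17 listed markers present in the table summed to 474.5, 758 and 664 CPM in young A, B and C and to 1043, 530.6 and 1103 CPM in the aged samples. Of 12 tested, 3 rose (Cd177, Cxcr2 and Retnlg) and none fell, where 9.73% of all genes tested were called higher and 7.97% lower. With the replicate block 1 rose. Without 1 sample at a time 0 to 4 rose, with 0 without young C and 4 without aged B. Cd177, the one with the largest change, had a log2 fold change of 1.62 (SE 0.31, edgeR adjusted p = 0.0116), whereas S100a9, the most abundant, had 0.20 (SE 0.32, edgeR adjusted p = 0.7). The granule genes Elane and Ltf lay at or below 0.42 and 1.40 CPM in every sample. Ngp, another granule gene of the list, lay between 15.1 and 27.6 CPM. Camp and Mpo were not in the table used here. The part of neutrophil RNA in the Mmp8 and Mmp9 values was not tested.

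Mmp3 (stromelysin 1, chr9:7445822-7455975) cleaves proteoglycans and fibronectin and can activate other metalloproteinase zymogens. It was read at 33, 13 and 45 counts in young A, B and C and at 14, 325 and 53 counts in aged A, B and C, or 1.83, 0.763 and 2.97 CPM against 0.981, 20.7 and 3.27 CPM. Aged B alone was high, and aged A lay within the young range. The log2 fold change was 2.17 (SE 0.89, edgeR adjusted p = 0.111), without aged B it was 0.23 (edgeR adjusted p = 0.835), and without aged A the gene passed the test (edgeR adjusted p = 0.0374). The same sample held 1259 counts of Krt14, a basal keratinocyte keratin, against 0 to 14 in the other 5 samples, and 245 counts of the fibroblast collagen gene Col1a1, against 16 to 65. Keratinocytes and fibroblasts count as CD45- cells in the study, whereas the sort kept CD45+ cells. The part of keratinocyte or fibroblast RNA in the Mmp3 value was not tested.

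**Figure D2:**
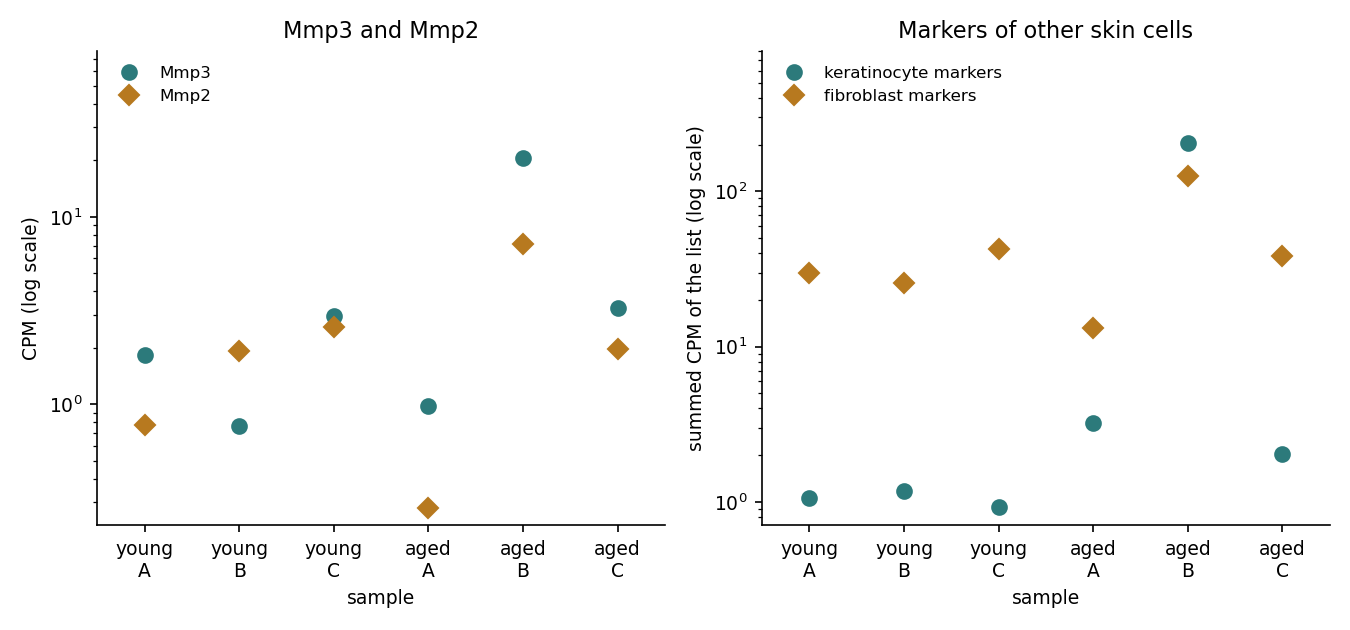
Left, CPM (log scale) of Mmp3 and Mmp2 in each sample. Right, summed CPM (log scale) of the keratinocyte and fibroblast marker lists in the same samples. Aged B is the highest sample in all 4 series, with 20.7 CPM of Mmp3 and 204.8 CPM of keratinocyte markers.

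Mmp14 (MT1-MMP, chr14:54431612-54445364) is anchored in the cell membrane, cuts pericellular collagen and activates proMMP2 in a complex that includes TIMP2. It was measured at 268, 320.2 and 273 CPM in young A, B and C and at 384, 267 and 268 CPM in aged A, B and C. Only aged A lay above the young samples, and the other aged samples were level with the lowest young ones. The log2 fold change was 0.09 (SE 0.19, edgeR adjusted p = 0.763), and the estimate became -0.10 when aged A was left out.

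Mmp19 (chr10:128790910-128800824), a secreted protease that cleaves basement membrane components, was measured at 278, 95.0 and 182 CPM in young A, B and C and at 373, 339 and 382 CPM in aged A, B and C. The aged samples lay close together above a widely spread young group. Aged exceeded young by 0.42, 1.83 and 1.07 on the log2 CPM scale within sets A, B and C. The means were 185 ± 91.8 and 365 ± 22.7 CPM (SD, n = 3 each), and the log2 fold change of 0.98 (SE 0.31) did not pass the test (edgeR adjusted p = 0.0541). With young A left out Mmp19 passed (edgeR adjusted p = 0.00661), and without each of the other samples in turn it did not (edgeR adjusted p = 0.068 to 0.167). With all samples it passed under 4 of 6 other settings of the test.

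**Figure D3:**
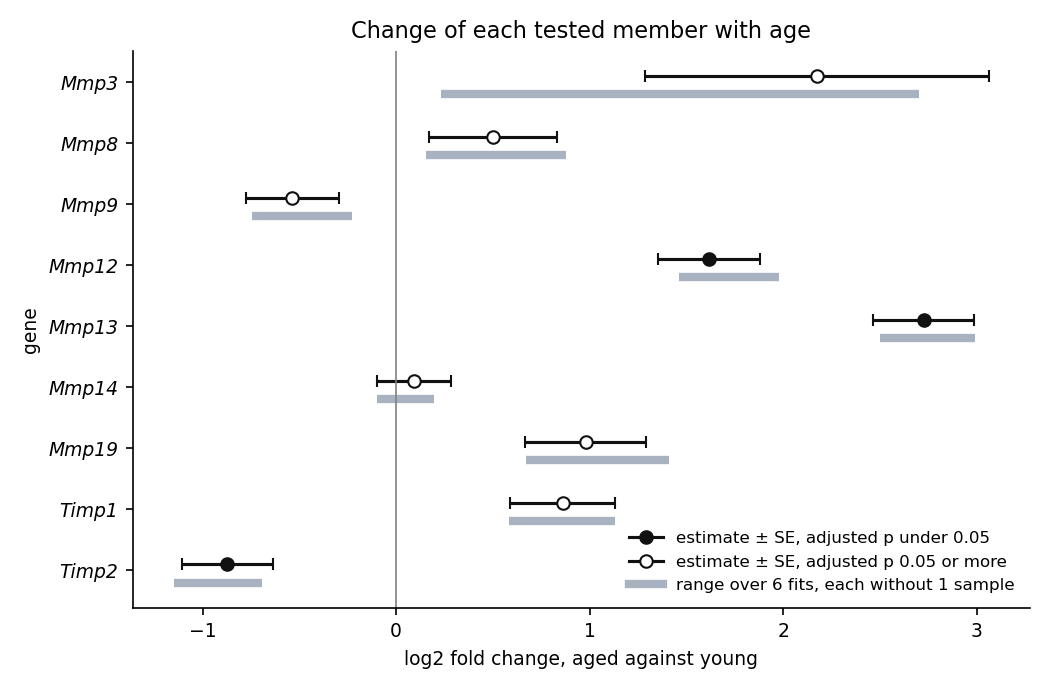
Log2 fold change of each tested gene, aged against young, with its SE (black; filled where the adjusted p was under 0.05) and the range of the estimate over 6 fits that each left out 1 sample (grey). Mmp12, Mmp13 and Timp2 are filled, the range of Mmp14 spans 0, and that of Mmp3 is the widest and reaches down to 0.23.

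Of the inhibitors, Timp1 (chrX:20870166-20874735) is the inducible, secreted TIMP, which also binds proMMP9. It was measured at 125, 52.4 and 103 CPM in young A, B and C and at 181, 156 and 171 CPM in aged A, B and C. Every aged sample lay above every young one, with young B the lowest. Aged exceeded young by 0.54, 1.57 and 0.74 on the log2 CPM scale within sets A, B and C. The means were 93.3 ± 37.0 and 169 ± 12.7 CPM (SD, n = 3 each), and the log2 fold change of 0.86 (SE 0.27) missed the threshold (edgeR adjusted p = 0.0511). Under 5 of 6 other settings of the test the adjusted p was below 0.05. It was also below without young A (edgeR adjusted p = 0.0147), and between 0.0635 and 0.132 without each of the other samples in turn. Timp1 lies within Syn1, a neuronal gene on the opposite strand, and whether counting used strand is not given in the sources used here. Syn1 held 57 to 107 counts per sample with no called change (log2 fold change 0.37, SE 0.31, edgeR adjusted p = 0.438), against 894 to 2769 counts for Timp1.

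Timp2 (chr11:118301069-118355740), a broadly and rather constantly expressed TIMP, moved the other way. It was measured at 266, 357 and 273 CPM in young A, B and C and at 121, 223 and 146 CPM in aged A, B and C. The highest aged sample, B, remained below the lowest young sample, A. The means were 299 ± 50.9 and 163 ± 52.8 CPM (SD, n = 3 each), a ratio of 0.547, and the log2 fold change was -0.87 (SE 0.24, edgeR adjusted p = 0.0327). Within sets A, B and C aged minus young was -1.13, -0.68 and -0.90 on the log2 CPM scale. The call was lost without young B (adjusted p = 0.108), young C (0.095), aged A (0.0799) or aged C (0.122), again by edgeR, whereas the estimate stayed between -1.15 and -0.69.

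Timp3 (chr10:86300372-86349506), the TIMP that is held in the extracellular matrix, was nearly undetected, with 17, 1 and 1 counts in young A, B and C and 0, 8 and 3 counts in aged A, B and C. It did not pass the filter on low counts. Without that filter its log2 fold change was -0.61 (SE 1.28, edgeR adjusted p = 0.797), and DESeq2 gave no adjusted p. A count of 0 allows up to 3 counts, which is 0.210 CPM in aged A (counting error only).

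Timp1 and Timp2 had estimates of opposite sign, of which only that of Timp2 was called. The Timp1 to Timp2 ratio, on CPM per kb of transcript, was 1.21, 0.379 and 0.969 in young A, B and C and 3.86, 1.81 and 3.02 in aged A, B and C. All aged samples lay above all young samples. This follows from the values above, since every aged sample lay above every young one in Timp1 and below in Timp2. This ratio and those of Mmp14 to Timp2 and Mmp9 to Timp1 were chosen after the values were seen and carry no test. The Mmp14 to Timp2 ratio was 2.87, 2.55 and 2.84 in the young samples and 8.99, 3.41 and 5.21 in the aged samples, again without overlap. The Mmp9 to Timp1 ratio was 1.20, 3.92 and 2.97 in the young samples and 0.940, 0.944 and 0.806 in the aged samples, which all lay below the lowest young value. The levels of these ratios depend on the transcript lengths used, whereas their fold change between the ages does not.

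Summed over the 7 proteases, the level was 832.5, 1065 and 1014 CPM per kb in young A, B and C and 1569, 1321 and 1568 CPM per kb in aged A, B and C, so the aged samples all lay above the young. The 3 inhibitors summed to 265.8, 222.6 and 243.1 CPM per kb in the young samples and to 265.9, 282.4 and 265.4 CPM per kb in the aged samples, with young A level with aged A and aged C. The direction of this sum depended on the lengths: with the longest transcript it was higher in every aged sample (means 186 and 236 CPM per kb), and on CPM with no division by length its mean was lower in aged (392 and 333 CPM) with overlap. The ratio of the sums was 3.13, 4.78 and 4.17 in the young samples and 5.90, 4.68 and 5.91 in the aged samples. Aged B lay below young B, and the groups overlapped. On the log2 scale the mean ratio was 1.99 ± 0.31 and 2.45 ± 0.19 (SD, n = 3 each), a difference of 0.46 against a pooled SD of 0.26. Without 1 sample at a time the difference ran from 0.29 (without young A) to 0.60 (without young B). Without Mmp12 the difference was 0.057, and without Timp1 it was 1.52. On summed CPM with no division by length it was 1.13, and the ratios, 2.56, 3.04 and 3.06 against 7.10, 4.85 and 7.22, did not overlap.

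Within the protease sum, Mmp12 and Mmp13 together made up 19.3%, 26.6% and 15.7% of the CPM per kb in young A, B and C and 39.5%, 42.9% and 51.2% in aged A, B and C. Mmp9 made up 26.2% ± 7.74 of the young sum and 12.0% ± 1.48 of the aged sum (SD, n = 3 each). For Mmp14 the shares were 38.1% ± 3.42 and 26.4% ± 4.77 (SD, n = 3 each). The shares of Mmp8 and Mmp19 overlapped between the ages. These shares add to a fixed whole, so that a rise in 1 member lowers the others. The shares also depend on the transcript lengths used, here the medians. With the longest transcript, Mmp14 had a mean of 88.6 in a mean protease sum of 342.7 CPM per kb in young. In aged it had 94.5 in 608.3 CPM per kb, so its shares were lower than those above.

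**Figure D4:**
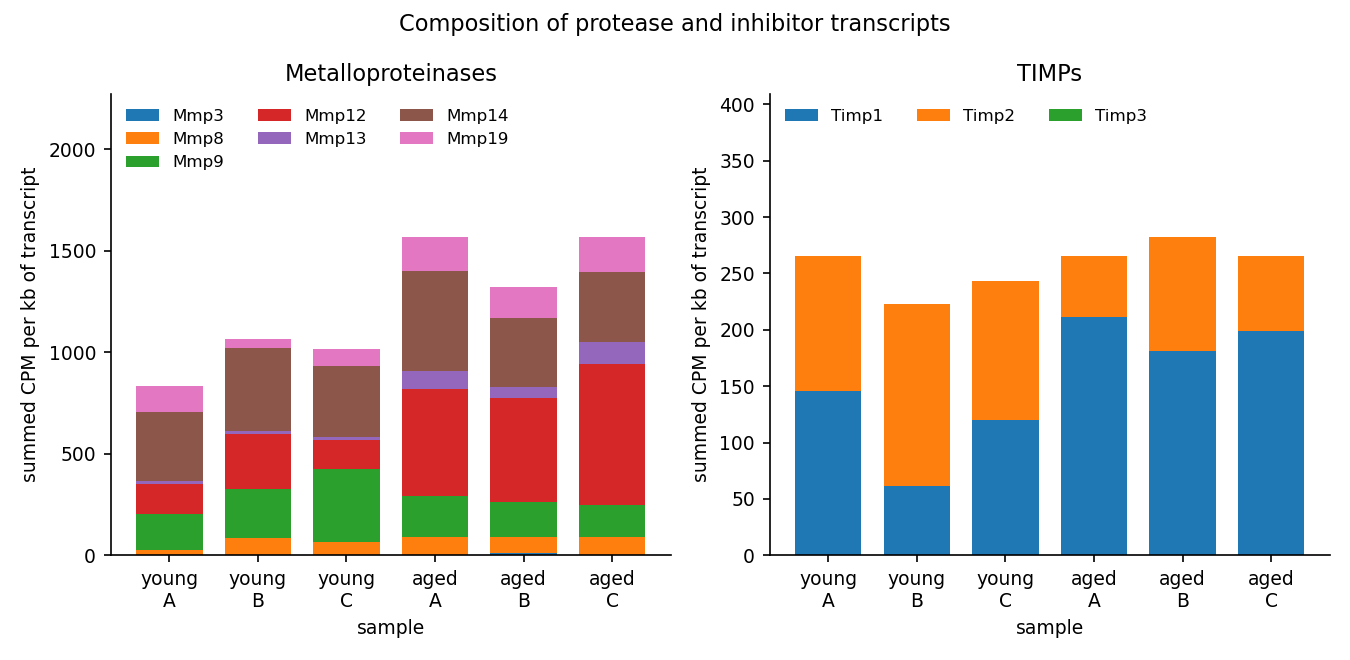
Summed CPM per kb of transcript in each sample, stacked by gene, for the 7 proteases (left) and the 3 inhibitors (right). The Mmp12 and Mmp13 segments are taller in the 3 aged samples, where Timp1 takes most of an inhibitor bar whose height, 222.6 to 282.4 CPM per kb, overlaps between the ages.

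Ranked by mean CPM per kb, young macrophages held Mmp14 at 368, Mmp9 at 257, Mmp12 at 188, Timp2 at 135, Timp1 at 109, Mmp19 at 82.7, Mmp8 at 60.3, Mmp13 at 12.8, Mmp3 at 1.03 and Timp3 at 0.176. Neighbours in this order overlapped, apart from Mmp8 with Mmp13 and Mmp13 with Mmp3. In aged macrophages the order was Mmp12 at 578, Mmp14 at 393, Timp1 at 197, Mmp9 at 177, Mmp19 at 163, Mmp8 at 85.3, Mmp13 at 84.8, Timp2 at 73.8, Mmp3 at 4.62 and Timp3 at 0.115. Here the sample ranges separated Mmp12 from Mmp14, Mmp14 from Timp1, Mmp19 from Mmp8, Timp2 from Mmp3 and Mmp3 from Timp3. The order rests on the median length of the annotated transcripts, which for Mmp14 is 779 bases against 3238 for the longest. With the longest transcript 7 of the 10 ranks changed at each age. Under both lengths Mmp14 was the highest protease in young macrophages (88.6 with the longest) and Mmp12 in aged macrophages (188 with the longest), and in aged macrophages Timp1 lay above Timp2. In young macrophages the order of Timp1 and Timp2 turned, to 106 and 80.5 CPM per kb.

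On chromosome 9, the table holds 10 genes between positions 7000000 and 8000000, 6 of them metalloproteinases. In chromosomal order these are Mmp13, Mmp12, Mmp3, Mmp10, Mmp8 and Mmp27, and the called genes are the neighbours Mmp13 and Mmp12. Mmp10 (stromelysin 2) held 5 to 39 counts and was not tested. Mmp27, the last of the row, had a log2 fold change of -1.36 (SE 0.54, edgeR adjusted p = 0.103). Of the genes flanking the cluster, Birc3, an inhibitor of apoptosis, rose (log2 fold change 0.61, SE 0.17, edgeR adjusted p = 0.0337), and Birc2, Tmem123 and Dcun1d5 were not called.

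The rest of the family was sparse. Of 17 other MMP and TIMP genes listed, 7 were in the table, 3 were tested and none was called by edgeR with all samples. By limma-voom Mmp25 was called higher (adjusted p = 0.04), and by edgeR without young A Mmp27 was called lower (adjusted p = 0.0424). Mmp2, which encodes gelatinase A, the zymogen that MMP14 and TIMP2 activate together, held 14, 33 and 39 counts in young A, B and C and 4, 112 and 32 counts in aged A, B and C. As with Mmp3, aged B was the high sample (log2 fold change 0.84, SE 0.81, edgeR adjusted p = 0.495). Mmp25, a membrane-anchored leukocyte protease, had a log2 fold change of 0.85 (SE 0.44, edgeR adjusted p = 0.193). Mmp11, Mmp23 and Mmp28 held at most 14 counts in any sample and were not tested.

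Genes that activate, bind or clear these enzymes were taken as a further list. Of 14 tested, 8 rose and none fell, where 9.73% of all genes tested were called higher and 7.97% lower, with a median log2 fold change of 1.02 against -0.02 over all genes tested. Without aged B 6 rose, without young B 4, without aged A or aged C 5 each, and without young C 2. Serpinb2 (PAI-2), an inhibitor of urokinase, whose product plasmin activates several zymogens, rose from 57.7, 76.8 and 92.7 CPM in young A, B and C to 640.5, 541 and 848 CPM in aged A, B and C (log2 fold change 3.16, SE 0.25, edgeR adjusted p = 0.00113). Plaur, the urokinase receptor, rose by 1.36 on the log2 scale (SE 0.26, edgeR adjusted p = 0.0117), and Plat, tissue plasminogen activator, by 1.04 (SE 0.30, edgeR adjusted p = 0.0379). Furin, the convertase that removes the MMP14 propeptide, was measured at 91.7, 44.7 and 42.9 CPM in the young samples and at 179, 109.6 and 107 CPM in the aged samples (log2 fold change 1.14, SE 0.31, edgeR adjusted p = 0.0331). Lcn2, whose product binds MMP9 and which neutrophils also express, rose by 0.99 on the log2 scale (SE 0.29, edgeR adjusted p = 0.0418). The clearance receptor Lrp1 (0.23, SE 0.16, edgeR adjusted p = 0.343) and the inducer Bsg (0.04, SE 0.20, edgeR adjusted p = 0.919) were not called, and Reck, a membrane-bound inhibitor, held 0 to 9 counts.

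Related metalloproteinases of the ADAM and ADAMTS families gave 2 called genes of 7 tested, both higher (9.73% of all genes tested were called higher), with a median log2 fold change of 0.40. Both calls were lost without young C, and that of Adam10 without aged C. These were Adam8 (1.12, SE 0.22, edgeR adjusted p = 0.0113), a leukocyte protease, and Adam10 (0.90, SE 0.19, edgeR adjusted p = 0.0156), a sheddase. Adam17, the sheddase that releases TNF and is inhibited by TIMP3, had a log2 fold change of 0.56 (SE 0.18) and missed the threshold (edgeR adjusted p = 0.0503). Under 4 of 6 other settings it was called, and it was not called without any 1 sample.

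Matrix proteins that metalloproteinases cut gave 4 higher and 1 lower of 14 tested, against 9.73% and 7.97% of all genes tested, with a median log2 fold change of 0.90. Without aged B the median was 0.17, with 4 called higher and none lower, without young C 1 was called higher, and without aged A 6. Col4a2, a basement membrane collagen, rose by 2.34 on the log2 scale (SE 0.51, edgeR adjusted p = 0.0163). Vcan, the proteoglycan versican, rose by 2.13 (SE 0.23, edgeR adjusted p = 0.00136). Thbs1, thrombospondin 1, also rose by 2.13 (SE 0.41, edgeR adjusted p = 0.0115), and Fn1, fibronectin, by 0.96 (SE 0.17, edgeR adjusted p = 0.00878). Spp1 (osteopontin) was the 1 called lower (log2 fold change -0.86, SE 0.26, edgeR adjusted p = 0.0475). That call was lost with DESeq2 size factors and in 5 of 6 fits without 1 sample, all but the one without young A. Col4a2 lay at 9 to 14 counts in the young samples and at 24 to 76 in the aged samples, so its values rest on little depth.

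Of 20 tested genes for AP-1, Ets and Runx transcription factors, families known to act on metalloproteinase promoters, 6 rose and none fell (9.73% and 7.97% of all genes tested), with a median log2 fold change of 0.14. Without aged B or young A again 6 rose, without aged A 4, without young B 2, without aged C 1 and without young C none. Without young A 2 fell, and DESeq2 and limma-voom also called 2 lower. These were Atf3 (log2 fold change -1.07, SE 0.36, edgeR adjusted p = 0.0634 with all samples) and the AP-1 subunit gene Fosb (-0.88, SE 0.28, edgeR adjusted p = 0.0522 with all samples). Runx2, a known activator of Mmp13 in bone and cartilage, was read at 103, 25 and 30 counts in young A, B and C and at 155, 154 and 143 counts in aged A, B and C (log2 fold change 1.68, SE 0.43, edgeR adjusted p = 0.0279). Fosl1 (FRA-1), an AP-1 subunit, rose by 1.57 on the log2 scale (SE 0.36, edgeR adjusted p = 0.02). Etv6 (0.98, SE 0.17, edgeR adjusted p = 0.0082) and Ets2 (0.91, SE 0.19, edgeR adjusted p = 0.0151) were the called Ets genes together with Ets1, and Runx1 was the other called Runx gene. The remaining 14 of these 20 genes, most AP-1 subunits among them, did not pass.

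**Figure D5:**
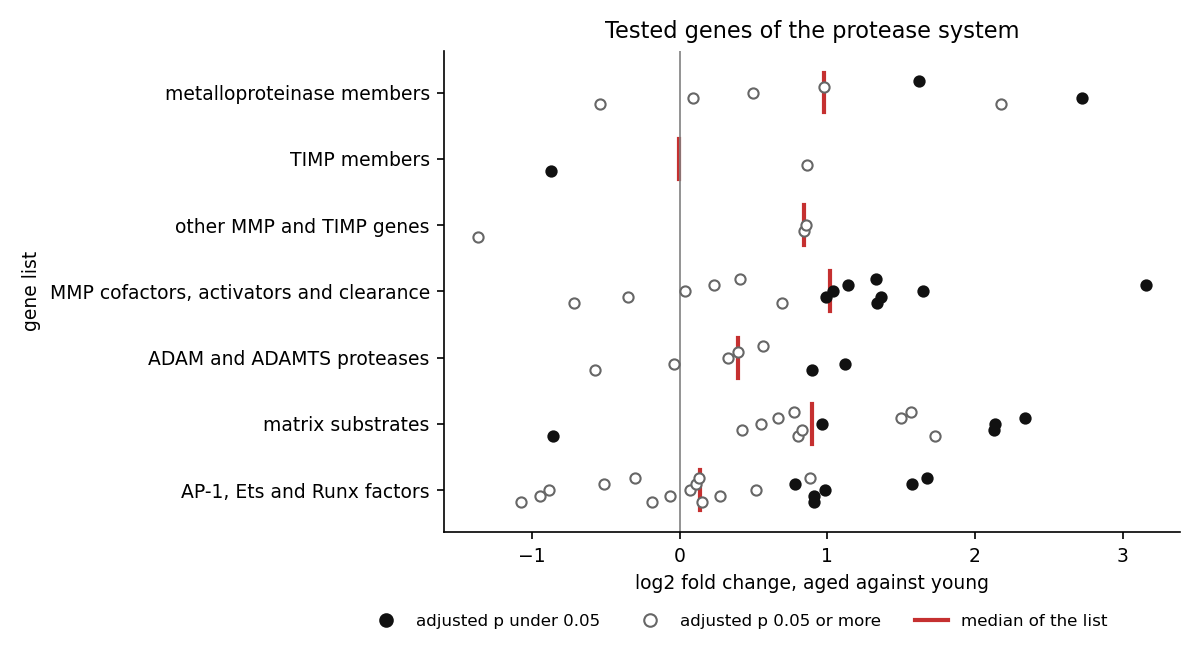
Log2 fold change, aged against young, of every tested gene in the 2 member groups and 5 related lists, filled where the adjusted p was under 0.05, with the median of each list in red. The cofactor list holds 8 filled points, all above 0, and the TIMP group holds 1 point on each side of 0.

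Marker lists of other cell types moved to differing degrees. Of 5 endothelial and mural markers tested, 1 rose, Pecam1, which leukocytes also express (log2 fold change 1.69, SE 0.21, edgeR adjusted p = 0.0022). The other 4 tested were not called. Of these Acta2 held 48 to 136 counts, Kdr 9 to 45, Vwf 11 to 33 and Egfl7 3 to 34. Cdh5, Emcn and Tek were not tested and held 0 to 12, 0 to 14 and 0 to 11 counts. The fibroblast list had 7 tested genes and the mast cell and dendritic cell lists 5 each, with none called. Without aged A 2 fibroblast markers were called higher and 4 of 5 mast cell markers lower, the latter also by limma-voom. Without young A or with the replicate block 2 dendritic cell markers were called higher, and by limma-voom 1. The mast cell markers summed to 25.6 to 94.8 CPM in the young samples and aged A but to 1.02 and 0.741 CPM in aged B and aged C. Of 2 lymphocyte and NK cell markers tested, 1 fell, a call lost in 5 of 6 fits without 1 sample (all but aged B), and the 8 in the table summed to 2.73 to 5.98 CPM over all samples. The 1 keratinocyte marker tested, Krt14, rose. It was still called without aged B, where its log2 fold change went from 8.29 to 3.25, and it was not called without young B or young C or by limma-voom. DESeq2 gave Krt14 no adjusted p. Of 12 macrophage markers, 2 rose and 4 fell (9.73% and 7.97% of all genes tested), with a median log2 fold change of -0.54, and without young C or aged C none fell. The part of these other cells in the values of the proteases and inhibitors was not tested.

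The genes whose sample profile was most like that of Mmp12, by the mean absolute difference of centred log2 CPM over 6 samples, were Plekha5 (0.116), Gm19951 (0.122) and Ccl4 (0.147). For Timp1 they were Agpat4 (0.0715), Klri2 (0.0812) and Pi4k2b (0.0847). Of these Plekha5 and Klri2 lay at means under 2 CPM in both ages.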

How the data were processed

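RNA was sequenced from 6 samples of sorted wound macrophages, 3 from young and 3 from aged mice. Per the labels and the methods, the authors made libraries from ultra-low RNA input, aligned paired reads with STAR 2.7.3a and quantified genes in Partek against Ensembl transcripts 102 on mm10. The deposited values are expected counts, of which 30.7 to 34.0% per sample are not whole, and they were rounded to whole numbers. Whether counting used strand is not given in the sources used here. All values rest on this 1 matrix of 15168 genes, whose lowest total over samples was 10.

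Genes passing edgeR's filterByExpr (11878) were compared between ages with edgeR 4.0.16 in R 4.3.3, by its quasi-likelihood test on trimmed-mean scaling, with Benjamini-Hochberg adjustment over all of them. The biological coefficient of variation was 0.239. An adjusted p under 0.05 was called, and every replicate pair differed by more than sampling noise. CPM per kb used median transcript lengths of GENCODE vM21 (GRCm38), the longest transcript being the alternative. Ends of genes were taken 1 base before the deposited stop, as the annotation has them. Intervals and floors (3 counts) cover counting error only. Alternatives were other scaling, DESeq2 1.42.0, limma 3.58.1 (voom with quality weights), other filters, the replicate block and leaving out each sample. The scripts were tested on simulated data.

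The members and the gene lists were chosen with earlier results of these data known. Genes named were all 10 members, all other listed family genes in the table, up to 3 called genes with the highest and up to 3 with the lowest log2 fold change in each related list, of either sign, some fixed cofactors (Reck, Furin, Lrp1, Bsg, Lcn2, Mmp2, Adam17), genes overlapping a member, the sort markers, the most abundant and most changed marker of another cell type that moved with age, and the 3 genes most like Mmp12 and Timp1. Cxcr2, Retnlg, Ngp, Col1a1, Elane, Ltf, Atf3 and Fosb and the neighbours on chromosome 9 were named after their values were seen. So were the endothelial and mural markers other than Pecam1. One gene that this rule names is not reported here.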

Additional observations from a re-analysis of the deposited data

How the results depend on the processing

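Mmp12 and Mmp13 kept their direction and stayed past the threshold in all 6 other fits and in all 6 fits without 1 sample, and Timp2 in all 6 other fits but only 2 of those without 1 sample. The count of called members, 3, became 5 by DESeq2, 5 with at least 10 counts in every sample and 6 by limma-voom, and without 1 sample it ran from 2 to 6. Over all genes, 2103 were called, 3646 by limma-voom, and from 218 (without young C) to 2702 (without young A) without 1 sample. The log2 fold change of Mmp14 ran from -0.0996 to 0.195 without 1 sample, changing sign without aged A. The difference in the log2 protease to inhibitor ratio, 0.46, was 1.13 without division by length, 0.0569 without Mmp12 and 1.52 without Timp1, and ran from 0.29 to 0.595 without 1 sample. The cause of these shifts was not tested. The fits without 1 sample hold fewer samples.

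With the set letter as a replicate block, 5 members and 2114 genes in all were called, Timp1 and Mmp19 being added. Deviations of same-lettered samples correlated at 0.181, -0.0206 and 0.114 in sets A, B and C, not all over 0.1, so the letters were not taken to pair the samples. Timp3, Reck and Mmp10 did not pass the filter on low counts with all samples, and without that filter none of them was called.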
